A study of Canis lupus familiaris with 7 samples.

Results

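The genes of the osteoclast and RANK ligand axis were examined in 7 canine osteosarcomas on gene expression arrays. They are 10 genes, chosen by name. Among them are the osteoclast genes ACP5, CTSK, CALCR and ATP6V0D2, and the ligand TNFSF11 with its receptor TNFRSF11A and its decoy receptor TNFRSF11B. The others are the transcription factor NFATC1, the integrin chain ITGB3 and the growth factor CSF1. Every probe that the array names for any of the 10 genes was taken, which gave 11 probes, because CTSK has 2. Of these, 10 probes of 9 genes passed the filter on dim signals, out of 11252 genes of the array with a symbol and such a probe. TNFRSF11A did not pass.

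RNA came from primary osteosarcoma tissue, with 1 array per tumor, to compare tumors that have lost DLG2, a membrane scaffold gene, with tumors that kept it. The DLG2 deleted group held 4 tumors, from a Mixed Breed (German Shepherd/Collie/X) of 8 years with the gender label MC, a Rottweiler X (Canine Mixed Breed) of 9 years labelled FS, a Greyhound of 6 years labelled MC and a Great Pyrenees of 7 years labelled FS. They are called deleted tumors 1 to 4 in that order. The DLG2 wild type group held 3 tumors, from a Boxer of 12 years labelled FS, a Mixed Breed (Labrador Retriever/X) of 10 years labelled FS and a Bull Mastiff of 8 years labelled MC, called wild-type tumors 1 to 3. The labels name no treatment and do not say how many copies of DLG2 a deleted tumor kept. The tissue was taken whole, so fewer cells of a type and less RNA per cell cannot be told apart. The group sizes limit the precision.

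Osteoclasts are large, multinucleated cells of the monocyte lineage that dissolve bone. Osteoblast lineage cells and lymphocytes make the RANK ligand (TNFSF11), which binds RANK (TNFRSF11A) on osteoclast precursors. RANK activates TRAF6, NF-kappaB and AP-1 and through them NFATC1, the factor that switches on the genes of resorption, while osteoprotegerin (TNFRSF11B) catches the ligand before it reaches RANK. CSF1 keeps the precursors alive and is needed for them to respond. Osteosarcoma is a tumor of bone-forming cells and lies in tissue where bone is remodelled.

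Probes behind the main results are shown, 1 for each gene, so that the measured stretch can be seen, 5′ to 3′ as in the array's design. They have 60 bases each and lie on the canFam2 build of the dog genome at chr20:52816640-52817097 for ACP5, chr17:63008856-63010773 for CTSK, chr29:35381944-35382003 for ATP6V0D2, chr1:4068052-4068111 for NFATC1, chr22:11170088-11170144 for TNFSF11 and chr13:21189291-21189350 for TNFRSF11B. ACP5 and ATP6V0D2 lie on the plus strand and the other 4 on the minus strand. The span of the ACP5 and CTSK probes is longer than the probe, 458 and 1918 bases, so they cross a gap in the genome, as a probe over a splice junction does. Their place in coding or untranslated exons was not analysed here. Capitals in the TNFSF11 probe mark its last bases, TGA, a stop codon.
ACP5: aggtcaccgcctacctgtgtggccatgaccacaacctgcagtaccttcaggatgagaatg
CTSK: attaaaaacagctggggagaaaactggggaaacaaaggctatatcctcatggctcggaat
ATP6V0D2: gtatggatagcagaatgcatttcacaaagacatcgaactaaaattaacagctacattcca
NFATC1: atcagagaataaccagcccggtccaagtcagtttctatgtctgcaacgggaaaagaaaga
TNFSF11: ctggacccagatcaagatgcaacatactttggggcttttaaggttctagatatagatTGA
TNFRSF11B: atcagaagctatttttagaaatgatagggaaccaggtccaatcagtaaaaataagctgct
A second CTSK probe (A_11_P153528, chr17:63008364-63008423, minus strand) shares no stretch of 12 bases with the CTSK probe shown. Where each gene was represented by 1 probe, CTSK was represented by this second one, the brighter on average. CALCR, ITGB3, CSF1 and TNFRSF11A each had 1 probe, on chromosomes 14, 9, 6 and 1.

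All values are log2 intensities after background correction and quantile normalization. An offset of 50 was added before the logarithm, so that differences of dim probes are understated. Levels are compared between tumors for 1 probe, never between probes. A probe is called well above background where the array software marked it so. A probe was called changed between the groups when its limma p was below 0.05 unadjusted and below 0.1 after Benjamini-Hochberg adjustment over all 32309 kept probes. limma called 0% of the kept probes at that threshold, and 7.27% were below 0.05 unadjusted. For DLG2 itself the array's probe was at 10.37, 11.44, 10.51 and 10.84 in the deleted tumors and at 10.91, 12.03 and 11.75 in the wild-type tumors, so the groups overlapped. Its difference was -0.77 (SE 0.35, limma adjusted p = 0.710). Wild-type tumors 1 and 2 were the most alike pair of arrays (r over probes 0.987), and the labels give them as separate dogs.

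Among the 10 kept probes of the axis limma called 0, and 0 were below 0.05 unadjusted, with adjusted p from 0.760 to 0.9999. The deleted tumors were lower for 7 probes and higher for 3, and the 95% interval of every difference held 0. The groups overlapped for all 10 probes, while they did not overlap for 8.15% of all kept probes. With the methods' t-test 0 of the 10 were past the threshold as well. What the values show most plainly lies between single tumors. Wild-type tumor 3, from the Bull Mastiff, was the highest of the 7 for 7 of the 10 probes, which were those of ACP5, CTSK (both probes), ATP6V0D2, NFATC1, ITGB3 and CSF1. For CSF1, well above background on only 3 arrays, it was just 1.01-fold above the next tumor. Over all kept probes it was the highest for 16.2%, and its array had 34538 probes well above background against 30280 to 31686 on the other 6. This tumor was already known from earlier results to stand high for osteoclast genes, so the count is a description and was not tested.

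**Figure D1:**
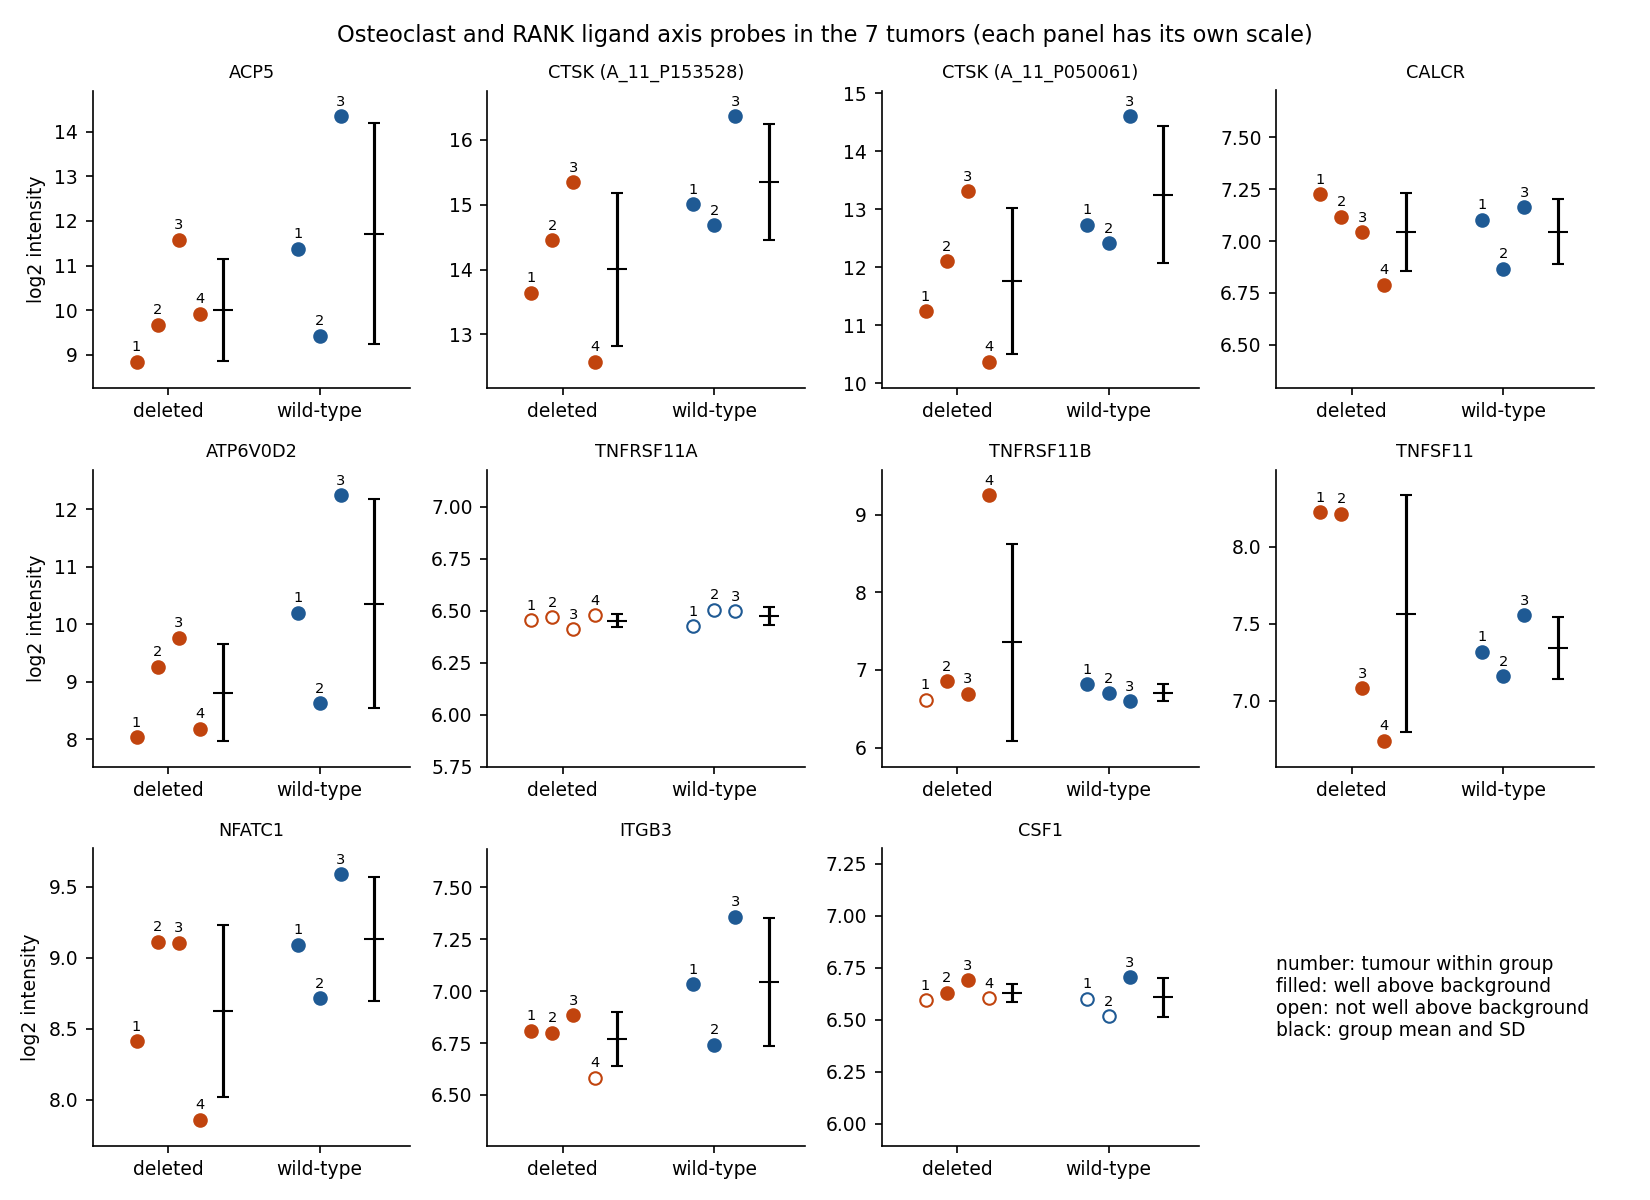
Log2 intensity of all 11 probes of the axis (one panel a probe, each with its own vertical scale) in the 4 deleted and 3 wild-type tumors, with a numbered point per tumor, open where the probe was not well above background, and black bars for the group mean ± SD. Wild-type tumor 3 lies at the top for ACP5, both CTSK probes and ATP6V0D2, while TNFRSF11B stands apart in deleted tumor 4 at 9.25.

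ACP5 codes for tartrate-resistant acid phosphatase, the classic stain for osteoclasts. Its log2 intensity was 8.84, 9.67, 11.58 and 9.92 in deleted tumors 1 to 4, and 11.37, 9.43 and 14.35 in wild-type tumors 1 to 3. The groups overlapped, since wild-type tumor 2 was below 3 of the deleted tumors, and wild-type tumor 3 was 6.82-fold above the next highest tumor. The group means were 10.00 ± 1.15 (SD, n = 4) and 11.72 ± 2.48 (SD, n = 3), and the difference was -1.71 (SE 1.18, 95% interval -4.52 to 1.09, limma adjusted p = 0.842). By exact permutation p was 0.400 (two-sided, smallest possible p 0.0571), and over the 10 kept probes of the axis this p ran from 0.229 to 1. Without wild-type tumor 3 the difference was -0.40. The range over the 7 tumors was 45.5-fold.

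CTSK codes for cathepsin K, the protease that degrades bone collagen, and both of its probes were bright. The probe shown above, averaged over its 5 spots, was at 11.24, 12.11, 13.31 and 10.37 in the deleted tumors and at 12.73, 12.41 and 14.60 in the wild-type tumors. The second probe was at 13.64, 14.45, 15.35 and 12.58 in the deleted tumors and at 15.01, 14.69 and 16.36 in the wild-type tumors. On both probes deleted tumor 4 was lowest, deleted tumor 1 next, and wild-type tumor 3 highest, but deleted tumor 3 was above wild-type tumors 1 and 2. The SD of the 5 spots within an array was 0.16 to 0.30, and the range between tumors was 18.7-fold. The differences were -1.49 (SE 0.81, 95% interval -3.41 to 0.43, limma adjusted p = 0.767) and -1.35 (SE 0.71, 95% interval -3.03 to 0.33, limma adjusted p = 0.760). Without wild-type tumor 3 they were -0.82 and -0.84.

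ATP6V0D2 codes for a subunit of the proton pump that acidifies the space under the osteoclast. It was at 8.03, 9.26, 9.76 and 8.18 in the deleted tumors and at 10.20, 8.62 and 12.24 in the wild-type tumors. Deleted tumors 1 and 4 were again the lowest of the 7, wild-type tumor 3 was 4.12-fold above the next tumor, and the groups overlapped through wild-type tumor 2. The difference was -1.55 (SE 0.87, 95% interval -3.61 to 0.51, limma adjusted p = 0.775) with an exact permutation p of 0.229 (two-sided). It was -0.61 without wild-type tumor 3.

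CALCR, the receptor through which calcitonin halts the osteoclast, did not follow these genes. It was well above background on all 7 arrays but dim, at 7.23, 7.12, 7.04 and 6.79 in the deleted tumors and at 7.10, 6.87 and 7.16 in the wild-type tumors. Its highest tumor was deleted tumor 1, and all 7 values lay within 0.44 of each other. The group means differed by less than 0.01, with a 95% interval from -0.32 to 0.32 (limma adjusted p = 0.9999). Before the offset, on the processed intensity scaled to each array's 75th percentile, its range was 1.42 on the log2 scale, against 5.74 for ACP5.

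**Figure D2:**
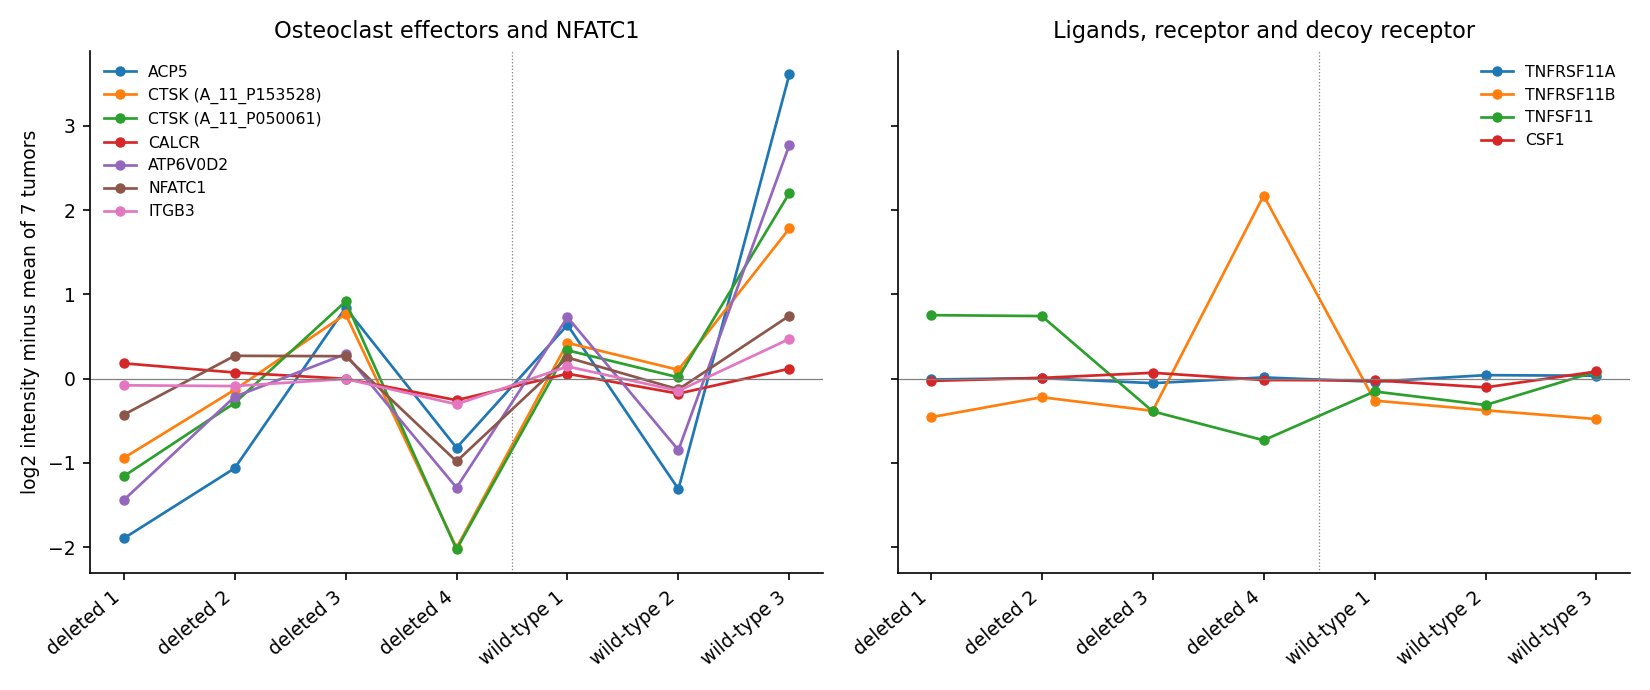
Log2 intensity of each probe minus its own mean over the 7 tumors (vertical axis) by tumor (horizontal axis), one line a probe, with the osteoclast genes and NFATC1 on the left and the ligands and receptors on the right. ACP5, CTSK and ATP6V0D2 share a peak in wild-type tumor 3, CTSK and ATP6V0D2 are lowest in deleted tumors 1 and 4, ACP5 is lowest in deleted tumor 1 and wild-type tumor 2, and CALCR stays near 0.

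The single slide that held both groups carried deleted tumors 2 and 3 and wild-type tumor 2. Within it the mean of deleted tumors 2 and 3 was above wild-type tumor 2, by 1.20 for ACP5 and 0.89 for ATP6V0D2. It was above by 0.30 and 0.21 for the CTSK probes, 0.40 for NFATC1 and 0.10 for ITGB3. On both CTSK probes only deleted tumor 3 was the higher one. Deleted tumor 2 was there below wild-type tumor 2, at 12.11 against 12.41 and at 14.45 against 14.69. With 1 wild-type tumor on that slide these differences have no spread of their own, and the part of the slide in the result was not tested. The arrays were also split here into 2 sessions, by an extraction hour in the file headers before noon or from noon on. The date of extraction was not used for this split. In session 1, with deleted tumors 2, 3 and 4 and wild-type tumor 2, ACP5 differed by 0.96 and ATP6V0D2 by 0.44, while the CTSK probes differed by -0.48 and -0.56. In session 2, with deleted tumor 1 and wild-type tumors 1 and 3, the same differences were -4.02 for ACP5, -3.19 for ATP6V0D2 and -2.43 and -2.05 for CTSK. With the session as a term they were -1.38, -1.27, -1.40 and -1.26.

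The ligand TNFSF11 had a different order of tumors. Its log2 intensity was 8.22, 8.21, 7.08 and 6.74 in the deleted tumors and 7.32, 7.16 and 7.55 in the wild-type tumors. Deleted tumors 1 and 2 were the highest, 1.58-fold above the next tumor, and deleted tumors 3 and 4 the lowest, so the wild-type tumors lay between them. The difference was 0.22 (SE 0.40, 95% interval -0.74 to 1.18, limma adjusted p = 0.948). It was 0.0013 without deleted tumor 1, 0.0050 without deleted tumor 2 and 0.50 without deleted tumor 4. The spread was 0.77 in the deleted and 0.20 in the wild-type tumors (SD, n = 4 and n = 3). The order of tumors in the ligand was not that in ACP5. Deleted tumor 1 had the highest ligand signal, by 0.01 over deleted tumor 2, and the lowest ACP5 signal. Wild-type tumor 3, the highest in ACP5, came next after deleted tumors 1 and 2 in the ligand.

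TNFRSF11B, which codes for the decoy receptor osteoprotegerin, was near background in 6 tumors. It was at 6.62, 6.86, 6.69 and 9.25 in the deleted tumors and at 6.82, 6.70 and 6.60 in the wild-type tumors. Deleted tumor 4, from the Great Pyrenees, was 5.26-fold above deleted tumor 2, the next one. On the processed intensity scaled to each array's 75th percentile, which carries no offset, it was 18.1-fold above the next, there wild-type tumor 1. The probe was well above background in 3 of 4 deleted and 3 of 3 wild-type tumors, and its intensity over local background was 459 in deleted tumor 4 against 14.1 to 33.0 elsewhere. The difference was 0.65 (SE 0.65, 95% interval -0.89 to 2.19, limma adjusted p = 0.903), and without deleted tumor 4 it was 0.02. Adipocyte markers moved with it. In deleted tumor 4 ADIPOQ was at 13.37 against 6.92 to 7.85 elsewhere, PLIN1 at 11.17 against 7.12 to 7.77 and CIDEC at 10.27 against 6.53 to 6.78. LPL was at 10.06 there against 7.40 to 8.68, and the LEP probes disagreed, the brighter one at 7.96 against 8.00 to 8.26 and the other at 9.79 against 6.41 to 6.79. The part of adipocyte RNA in the TNFRSF11B value was not tested.

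The balance of ligand and decoy receptor was taken as log2 TNFSF11 minus log2 TNFRSF11B in each tumor, as a deviation from the mean of the 7. It was 1.21, 0.96, -0.01 and -2.90 in the deleted tumors and 0.11, 0.06 and 0.56 in the wild-type tumors. The lowest balance was that of deleted tumor 4. In deleted tumor 1 TNFRSF11B was not well above background, so its balance rests on a decoy value that is only a bound. The means were -0.18 ± 1.89 (SD, n = 4) and 0.25 ± 0.28 (SD, n = 3), with a difference of -0.43 (exact permutation p = 0.971, two-sided). Without deleted tumor 4 the difference turned to 0.48.

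TNFRSF11A, the receptor RANK, was not well above background on any of the 7 arrays. Its log2 intensity lay between 6.41 and 6.51 in all tumors, and no fold is given. The receptor of the ligand therefore could not be compared between the groups with this probe.

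NFATC1, the factor downstream of RANK, was at 8.41, 9.11, 9.11 and 7.86 in the deleted tumors and at 9.09, 8.71 and 9.59 in the wild-type tumors. Wild-type tumor 3 was highest and deleted tumors 4 and 1 lowest, as for CTSK and ATP6V0D2, over a narrower range of 3.31-fold. The difference was -0.51 (SE 0.36, 95% interval -1.37 to 0.36, limma adjusted p = 0.852), and -0.28 without wild-type tumor 3.

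ITGB3, the beta chain of the integrin that attaches osteoclasts to bone, was at 6.81, 6.80, 6.88 and 6.58 in the deleted tumors and at 7.03, 6.74 and 7.36 in the wild-type tumors. Wild-type tumor 3 was 1.25-fold above the next, and deleted tumor 4, the lowest, was not well above background. The difference was -0.28 (SE 0.16, 95% interval -0.66 to 0.11, limma adjusted p = 0.789). CSF1 was well above background on only 3 arrays, those of deleted tumors 2 and 3 and wild-type tumor 3. Its values lay between 6.52 and 6.71, and the difference was 0.02 (95% interval -0.19 to 0.23, limma adjusted p = 0.980).

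**Figure D3:**
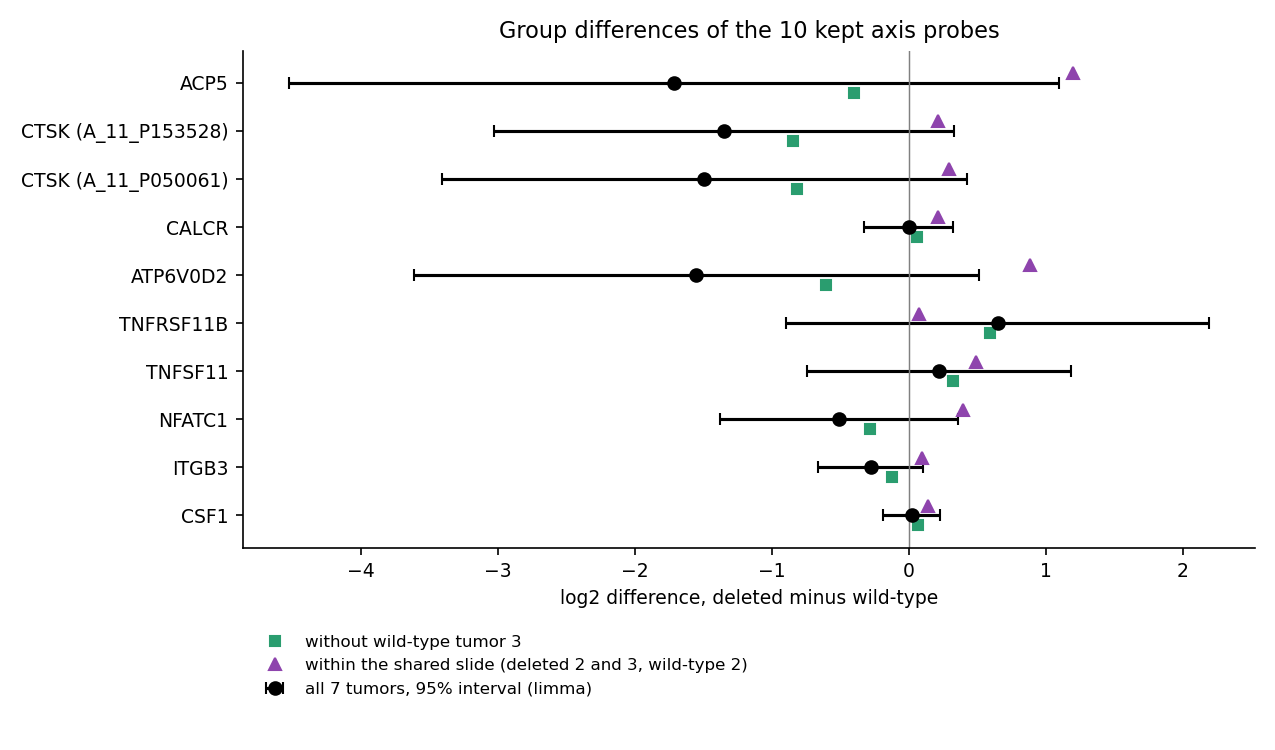
Deleted minus wild-type difference in log2 intensity of each of the 10 kept probes (black points) with its 95% limma interval (black lines), the value without wild-type tumor 3 (squares) and the value within the shared slide (triangles). Every interval crosses 0, the differences of ACP5, CTSK and ATP6V0D2 shrink to between -0.84 and -0.40 without that tumor, and within the slide they lie above 0.

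Whether the deleted minus wild-type difference was unlike in dogs labelled MC and FS was tested as an interaction of sex label with DLG2 status. limma called 0 of 32303 probes, with 2565 below 0.05 unadjusted, and among the axis probes the adjusted p ran from 0.720 to 0.999. The largest term was that of ACP5, -3.53 (limma unadjusted p = 0.0977). It rests on 1 wild-type dog labelled MC, which is the tumor with the highest osteoclast signals.

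The other genes of the pathway were read in 5 lists and the markers of other cell types in a further 5, with 1 probe per gene. Over all 11252 genes the median difference was 0.01 and 52.7% were higher in the deleted tumors. At an unadjusted p below 0.05, 3.66% were higher and 3.95% lower, and 14.2% were highest in wild-type tumor 3. limma called 0 genes in each of the 10 lists.

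The resorption machinery (proton pump subunits, chloride and bicarbonate transport, proteases) had 19 tested genes of 24, of which 16 were lower and 3 higher in the deleted tumors, with a median difference of -0.36, which was -0.06 without wild-type tumor 3. None was below 0.05 unadjusted in limma, 0 higher and 0 lower, and 13 of the 19 were highest in wild-type tumor 3. MMP9, a protease abundant in osteoclasts that is named after its values were seen, was at 11.04, 12.87, 14.55 and 11.64 in the deleted tumors and at 14.25, 12.20 and 16.84 in the wild-type tumors. It had the order of ACP5 at its top, with wild-type tumor 3 far above the rest, and a difference of -1.91 (SE 1.24, limma adjusted p = 0.827) that was -0.70 without that tumor. Its 4 other probes differed by -1.92 to -0.08. For the whole list the per-tumor medians of the deviations were -0.28, -0.11, 0.11 and -0.37 in the deleted tumors and 0.07, -0.25 and 0.82 in the wild-type tumors. Within the shared slide the list's median difference was 0.23.

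Of the genes of osteoclast fusion and surface, 11 of 19 were tested, 6 higher and 5 lower, with a median of 0.07, and 5 were highest in wild-type tumor 3. SIGLEC15, a surface receptor of osteoclast differentiation, was at 10.27 in wild-type tumor 3 and between 7.41 and 8.73 in the other 6. TM4SF19 was at 12.05 there against 8.05 to 10.09. These 2 genes are named because they are among the nearest profiles described below. Other genes of the list went the other way. CD44 was lowest in wild-type tumor 3, at 7.70 against 7.87 to 8.70. The brighter SIRPA probe was also lowest there, at 10.26 against 10.27 to 12.41. DCSTAMP and OCSTAMP, which drive precursor fusion, were not analysed here.

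Of the RANK signalling genes, 40 of 46 were tested, 25 higher and 15 lower, with a median of 0.11. At an unadjusted p below 0.05, 4 were higher and 1 lower. CYLD, a deubiquitinase that restrains TRAF6 signalling, was at 9.34, 9.43, 9.44 and 8.95 in the deleted tumors and at 8.48, 8.71 and 8.54 in the wild-type tumors. All deleted tumors lay above all wild-type tumors, and the difference of 0.71 (SE 0.15, limma unadjusted p = 0.00194, adjusted p = 0.435) was 0.70 without wild-type tumor 3 and 0.72 within the shared slide. The others were RELA at 0.34, FOSL2 at 0.34 and JUNB at 0.24, which code for NF-kappaB and AP-1 subunits, and TAB2, an adaptor of the TAK1 kinase, at -0.48. The second probes of RELA, FOSL2 and TAB2 differed by 0.10, 0.13 and -0.06. JUNB was well above background on all 7 arrays but dim, between 6.63 and 6.95. None of the 5 passed the threshold.

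Of the CSF1 branch, all 13 genes with a probe were tested, 8 higher and 5 lower, with a median of 0.08 and 2 below 0.05 unadjusted, both higher. IL34, the other ligand of the CSF1 receptor, was at 8.86, 8.28, 9.69 and 8.34 in the deleted tumors and at 7.52, 7.96 and 7.96 in the wild-type tumors. The groups did not overlap, and the difference was 0.98 (SE 0.36, limma unadjusted p = 0.0292, adjusted p = 0.643), 1.05 without wild-type tumor 3 and 1.03 within the shared slide. TFE3, a transcription factor of the MITF family, differed by 0.68, and its second probe by 0.06. The inducers of RANK ligand, such as prostaglandin and interleukin genes, had 22 tested genes, 16 higher and 6 lower, with a median of 0.09 and 0 below 0.05 unadjusted in limma.

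The marker lists place these values among the other cells of the tissue. Of the osteoblast markers, COL1A2 lay between 16.99 and 17.72, while PHEX was well above background on 6 arrays and MEPE on 5. In the deleted tumors 8 of 10 were lower with a median of -0.21, which was -0.07 without deleted tumor 2 and -0.59 without deleted tumor 4. BGLAP, the osteoblast product osteocalcin, was also highest in wild-type tumor 3, at 14.19 against 9.75 to 12.40, and 2 of the 10 markers were highest there. The monocyte and macrophage markers did not peak there, since 1 of 15 was highest in that tumor. Their per-tumor medians were -1.03, 0.19, 1.51 and -0.50 in the deleted tumors and -0.26, 0.91 and -0.56 in the wild-type tumors, so deleted tumor 3 and wild-type tumor 2 were the highest. CD163, a macrophage scavenger receptor, was at 8.25 in wild-type tumor 3, below 5 other tumors. CD68, a lysosomal protein of macrophages and osteoclasts alike, was the exception and was highest there, at 12.41 against 9.83 to 11.64.

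Activated T cells can make RANK ligand, and 5 of 10 tested lymphocyte markers were higher in the deleted tumors at an unadjusted p below 0.05, with 0 lower. CD3D, a chain of the T cell receptor complex, was at 10.02, 9.42, 10.02 and 8.61 in the deleted tumors and at 7.48, 7.85 and 7.27 in the wild-type tumors. Its groups did not overlap, with a difference of 1.98 (limma unadjusted p = 0.0011, adjusted p = 0.434), and CD3G differed by 1.08, CD3E by 0.51, CD8A by 0.36 and MS4A1 by 0.30. TNFSF11 was high in deleted tumors 1 and 2 but not in deleted tumor 3, which had as much CD3D as deleted tumor 1. The part of T cells in the TNFSF11 values was not tested. The endothelial markers had 6 of 6 higher in the deleted tumors with a median of 0.49, and were highest in deleted tumor 3. Without that tumor the median was 0.12, and with age as a covariate it was -0.10.

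**Figure D4:**
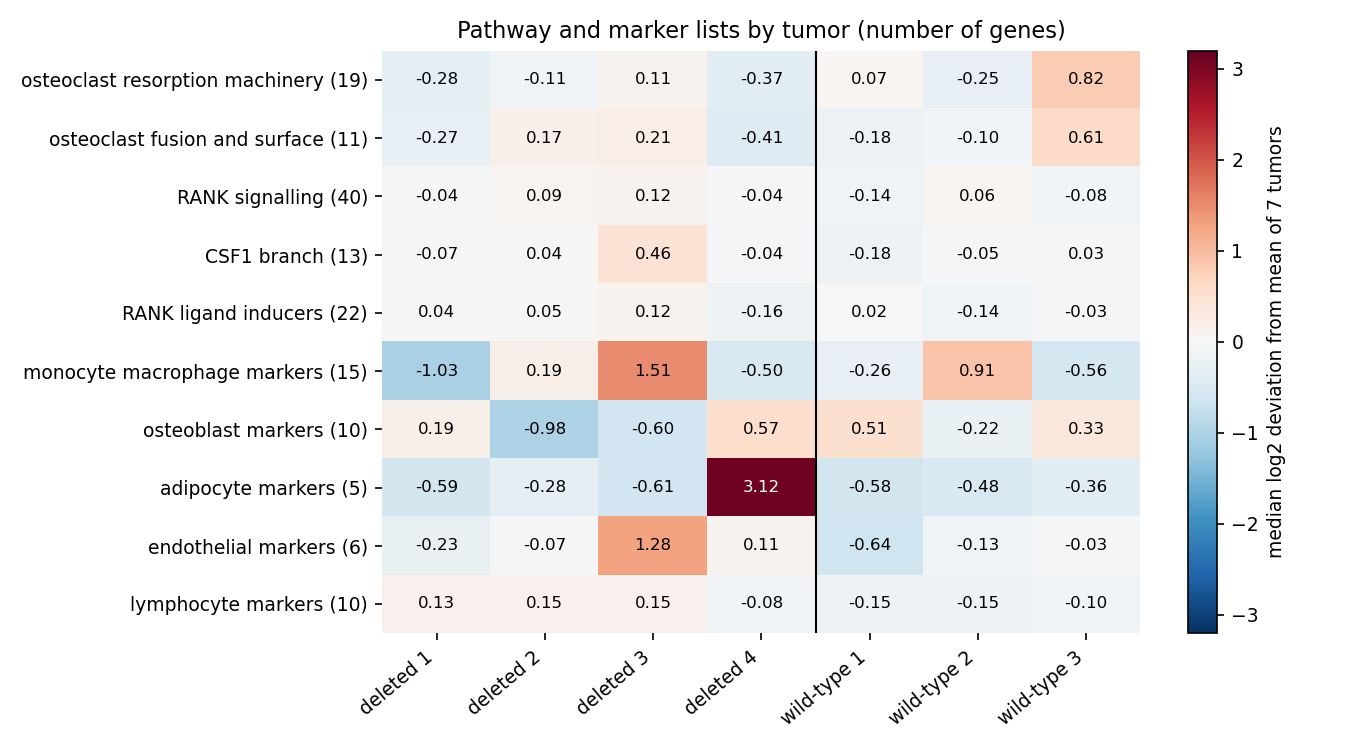
Color map of the median log2 deviation from the 7-tumor mean, printed in each cell, for each gene list (rows, number of genes in brackets) in each tumor (columns). The resorption machinery reaches 0.82 in wild-type tumor 3, the macrophage markers reach 1.51 in deleted tumor 3, and the adipocyte markers reach 3.12 in deleted tumor 4.

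Genes whose profile lay nearest to the mean centred profile of ACP5, CTSK, CALCR and ATP6V0D2 were ranked by the mean absolute distance over the 7 tumors, among 11216 genes with a median distance of 0.874. The nearest was MATK, a kinase related to CSK, at 0.248, with log2 intensities of 7.59, 8.43, 9.22 and 7.52 in the deleted tumors and 8.74, 8.70 and 10.24 in the wild-type tumors. It was followed by SIGLEC15 at 0.265, TM4SF19 at 0.313, TCIRG1 at 0.315, LEPREL1 at 0.336 and CD68 at 0.367. TCIRG1, the osteoclast isoform of the proton pump's a subunit, was at 10.44, 11.84, 12.20 and 10.33 in the deleted tumors and at 12.01, 11.86 and 13.54 in the wild-type tumors. RGS10, PSTPIP1, HYAL1 and RAB38 came next, at 0.375, 0.375, 0.386 and 0.392. The mean profile itself peaks in wild-type tumor 3, at 2.07, so genes chosen for likeness to it would be high there. CALCR, which stayed near 0, is part of that profile and flattens it. All 10 were highest in wild-type tumor 3, between 1.50 and 3.18 above the mean of the other tumors on the log2 scale. That peak is a result of the choice. With the mean of all probes of a gene, 9 of the 10 remained among the nearest 10.

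**Figure D5:**
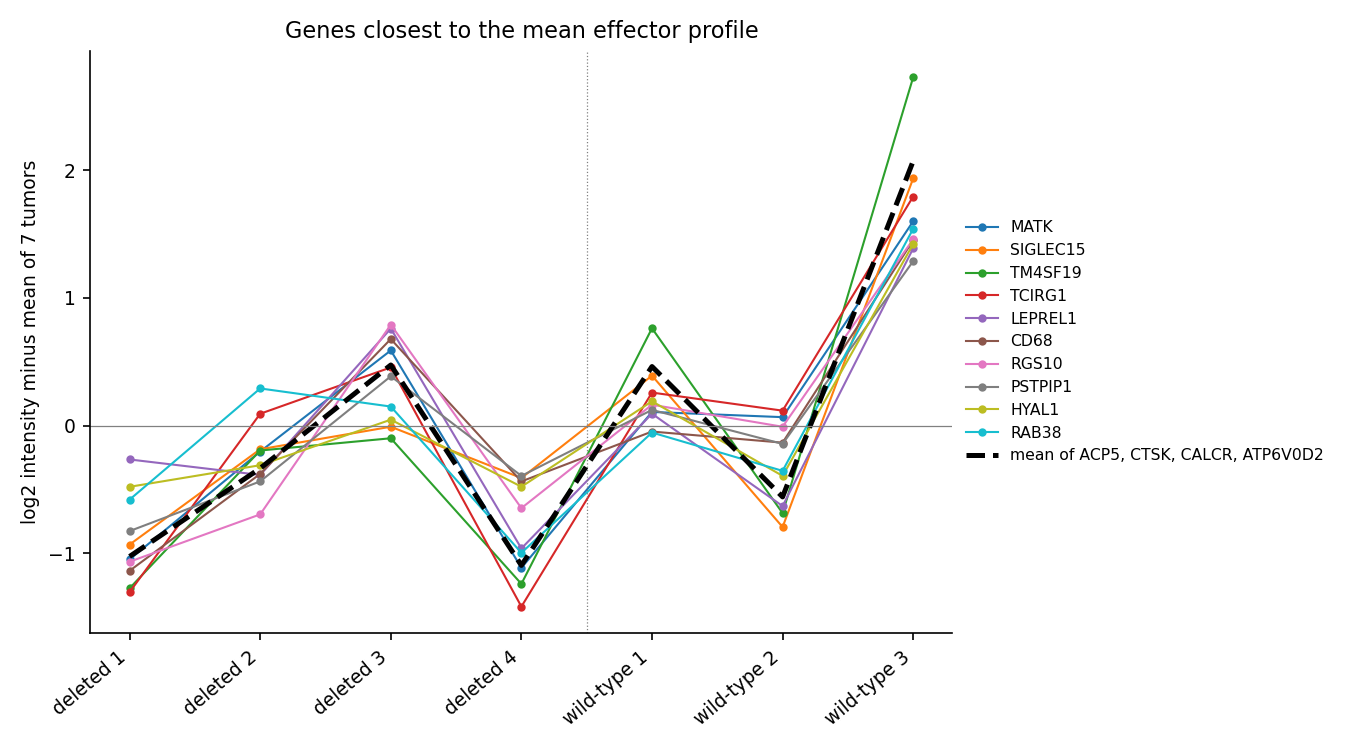
Log2 intensity minus the mean of the 7 tumors (vertical axis) by tumor (horizontal axis) for the 10 genes nearest to the mean profile of ACP5, CTSK, CALCR and ATP6V0D2, which is the dashed line. The genes were chosen for their likeness, and all lie highest in wild-type tumor 3.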

How the data were processed

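RNA of 7 tumors had been hybridised by the authors to a 1-color Agilent canine array of the V2 design. Per the file headers, the deposited files give spot and local background intensity on a linear scale, written by Agilent Feature Extraction 10.7.3.1. For their own analysis the authors used multi-array average normalization with a batch correction, whose batch is not given in the sources used here. From the deposited intensity, log2 values were computed here with limma 3.58.1 in R 4.3.3: normexp background correction (offset 50), control spots left out, quantile normalization between arrays, 144 outlier values left out, and replicate spots averaged. Probes well above background on at least 3 arrays were kept, with 34538 probes well above background in wild-type tumor 3 and 30280 to 31686 in the others, and 0 spots were saturated.

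Groups came from the labels. Deleted and wild-type tumors were compared with limma (two-sided, no covariates, all kept probes), and single probes also with the exact permutation test over the 35 splits (scipy 1.17.1). The computations were tested on simulated data. The alternatives were other background corrections, scalings, offsets, filters and tests, array weights, slide, session, sex label or age as terms, and tumors left out or merged. Gene symbols were those of the files, except that 1842 probes were named through gene ID, 3 through accession and 219 through a synonym with a RefSeq table. Each gene was represented by its brightest probe on average. Named were every axis gene, up to 5 genes a list below 0.05 unadjusted, defining cell markers, the 10 nearest profiles, and DLG2. The genes and lists were chosen with earlier results of these data known.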

Additional observations from a re-analysis of the deposited data

Results flagged for a closer look

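Of the 11 probes compared within the deleted group, TNFRSF11B in deleted tumor 4 stood apart from the other 3 deleted tumors, with a gap of 0.910 of the group's whole range, past Dixon's 95% limit. Its log2 intensity there was 9.25 against 6.62 to 6.86 in the other deleted tumors. Chance gives about 1 such group in 20. The adipocyte markers ADIPOQ, PLIN1, CIDEC and LPL and 1 of the LEP probes were also highest in that tumor, and their part was not tested.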

How the results depend on the processing

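No paired analysis was possible because the replicate numbers only name the tumors. Across 22 alternatives 0 probes of the axis were called. With slide as a fixed block, which leaves 1 residual degree of freedom, 0 probes were lower in place of 7, and the differences turned to 1.20 (ACP5), 0.21 and 0.30 (CTSK), 0.21 (CALCR), 0.89 (ATP6V0D2), 0.40 (NFATC1) and 0.10 (ITGB3). With 75th percentile scaling after normexp, which moved the median of all probes to 0.32, CALCR turned to 0.52 and ITGB3 to 0.33. CALCR, near 0, also turned to 0.025 with array weights, 0.033 with slide as a random block, 0.11 with session and 0.040 with age. CSF1 turned to -0.037 with age and to -0.0029 with wild-type tumors 1 and 2 counted as 1. The causes were not tested. Probes below 0.05 unadjusted numbered 3 with that scaling (both CTSK and TNFRSF11B), 2 with sex label and 1 with age, in place of 0.

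Leaving out each tumor in turn, the number below 0.05 ran from 0 to 3 (2 without deleted tumor 3, 3 without wild-type tumor 2), CALCR from -0.089 to 0.085, CSF1 from -0.024 to 0.070 and the ligand to decoy balance from -0.89 to 0.48. ACP5 ran from -2.86 to -0.40, ATP6V0D2 from -2.42 to -0.61, the CTSK probes from -2.01 to -0.82, TNFSF11 from 0.0013 to 0.50, TNFRSF11B from 0.018 to 0.90, NFATC1 from -0.72 to -0.25 and ITGB3 from -0.43 to -0.12. List medians ran from -0.21 to 0.14 (fusion and surface), 0.05 to 0.14 (RANK signalling), -0.04 to 0.10 (CSF1 branch), 0.08 to 0.17 (inducers), -0.39 to 0.44 (macrophage) and 0.07 to 1.13 (adipocyte). With array weights ACP5 was -0.76, the CTSK probes -0.74 and -0.74, ATP6V0D2 -0.87, NFATC1 -0.27, TNFRSF11B 0.41 and the resorption median -0.13. With age as a covariate ACP5 was -3.51, the CTSK probes -2.47 and -2.03, ATP6V0D2 -2.50 and TNFSF11 0.60. The promoter motif comparison was not run. The filter on all 7 arrays gave no value for TNFRSF11B, ITGB3 and CSF1. Signal over background limits these 3, and TNFRSF11A, which was well above it on 0 arrays.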
